A study of Mus musculus with 6 samples.

Results

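The nuclear-encoded subunits of the respiratory chain were followed in descending colon RNA from untreated, 12-week-old wild-type (C57BL/6) and Muc2-/- mice. The Muc2 protein is the main structural mucin of colonic mucus, and its loss is used to model colitis. Polyadenylated RNA was sequenced in 3 libraries per genotype. The sample titles name crypts where the protocols name colon tissue, and the labels give neither the mutated allele nor the number of animals in a library. P-values therefore measure the spread between these libraries, which may be technical. Members were taken by name from the deposited count table: protein-coding rows whose name begins with Nduf, Uqcr, Atp5 or Cox4 to Cox8, with Sdha, Sdhb, Sdhc, Sdhd and Cyc1. This gave 98 of 55849 rows. They were 38 subunits of complex I, 8 complex I assembly factors (the Ndufaf names, no part of the finished enzyme), 4 of complex II, 9 of complex III, 21 of complex IV and 18 of complex V. Ndufa4 and Ndufa4l2, named for complex I, were placed with complex IV, where the Ndufa4 protein is now known to sit.

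The respiratory chain of the inner mitochondrial membrane passes electrons from NADH (complex I) and succinate (complex II) through ubiquinone, complex III and cytochrome c to oxygen at complex IV, and ATP synthase (complex V) uses the proton gradient so made. Mitochondrial DNA encodes 13 proteins of the cores of complexes I, III and IV and of the membrane proton channel of complex V, whereas every other subunit, and all of complex II, is encoded in the nucleus and imported. In the colon, differentiated epithelial cells draw much of their energy from mitochondrial oxidation of butyrate.

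The libraries held 16395432 to 20336459 counted reads each. Muc2 itself was at 2480.1, 6977 and 2629 CPM in the wild-type libraries and 757, 1021 and 942 in the Muc2-/- libraries, log2 fold change -2.15, SE 0.47, edgeR adjusted p = 0.103, and DESeq2 adjusted p = 6.77e-05, with no overlap of the groups. Of 16107 genes that passed the filter on low counts, 20 were called at an edgeR adjusted p under 0.05, 17 higher and 3 lower in Muc2-/-. Of the wild-type libraries, replicate 1 carried the most smooth muscle transcript (12 of 12 markers detected, summed level 3082 to 25899 CPM over the 6 libraries), and Muc2-/- 2 carried the least mitochondrially encoded RNA.

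No member was called in either direction. Among the 93 members that passed the filter, edgeR adjusted p ranged from 0.168 to 0.901, against 0.124% of all tested genes called, and DESeq2 called none either, against 4.09% of all genes called higher and 7.41% called lower. The members nevertheless leaned one way: 90 of 93 had a positive log2 fold change in Muc2-/- and the median was 0.55, a ratio of 1.47, where the median over all tested genes was -0.01. The count of 90 held under RLE and upper-quartile scaling; with no composition factors, which moved the median of all genes to -0.20, it was 81, the added negative members being Atp5g2, Cyc1, Ndufa1, Ndufaf1, Ndufaf3, Ndufaf4, Ndufb1, Uqcr10 and Uqcrc2. An unadjusted p under 0.05 was reached by 16 members, all higher, with 8.23% of all tested genes on that side and 12.7% on the lower side. The 3 Muc2-/- values lay wholly above the 3 wild-type values for 31 members, and wholly below for 1 member, against 13.3% and 15.2% of all tested genes. By complex the median log2 fold change was 0.59 for complex I, 0.54 for complex II, 0.43 for complex III, 0.53 for complex IV and 0.60 for complex V, and 0.24 for the assembly factors. Without Muc2-/- 2 these medians were 0.21, 0.27, 0.27, 0.38 and 0.36 for complexes I to V and 0.033 for the assembly factors. Without wild-type 1 the median of complex III was 0.23, and without Muc2-/- 3 that of the assembly factors was 0.43. The fold changes over all 6 libraries with their errors are drawn member by member in the plot of fold changes by complex.

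**Figure D1:**
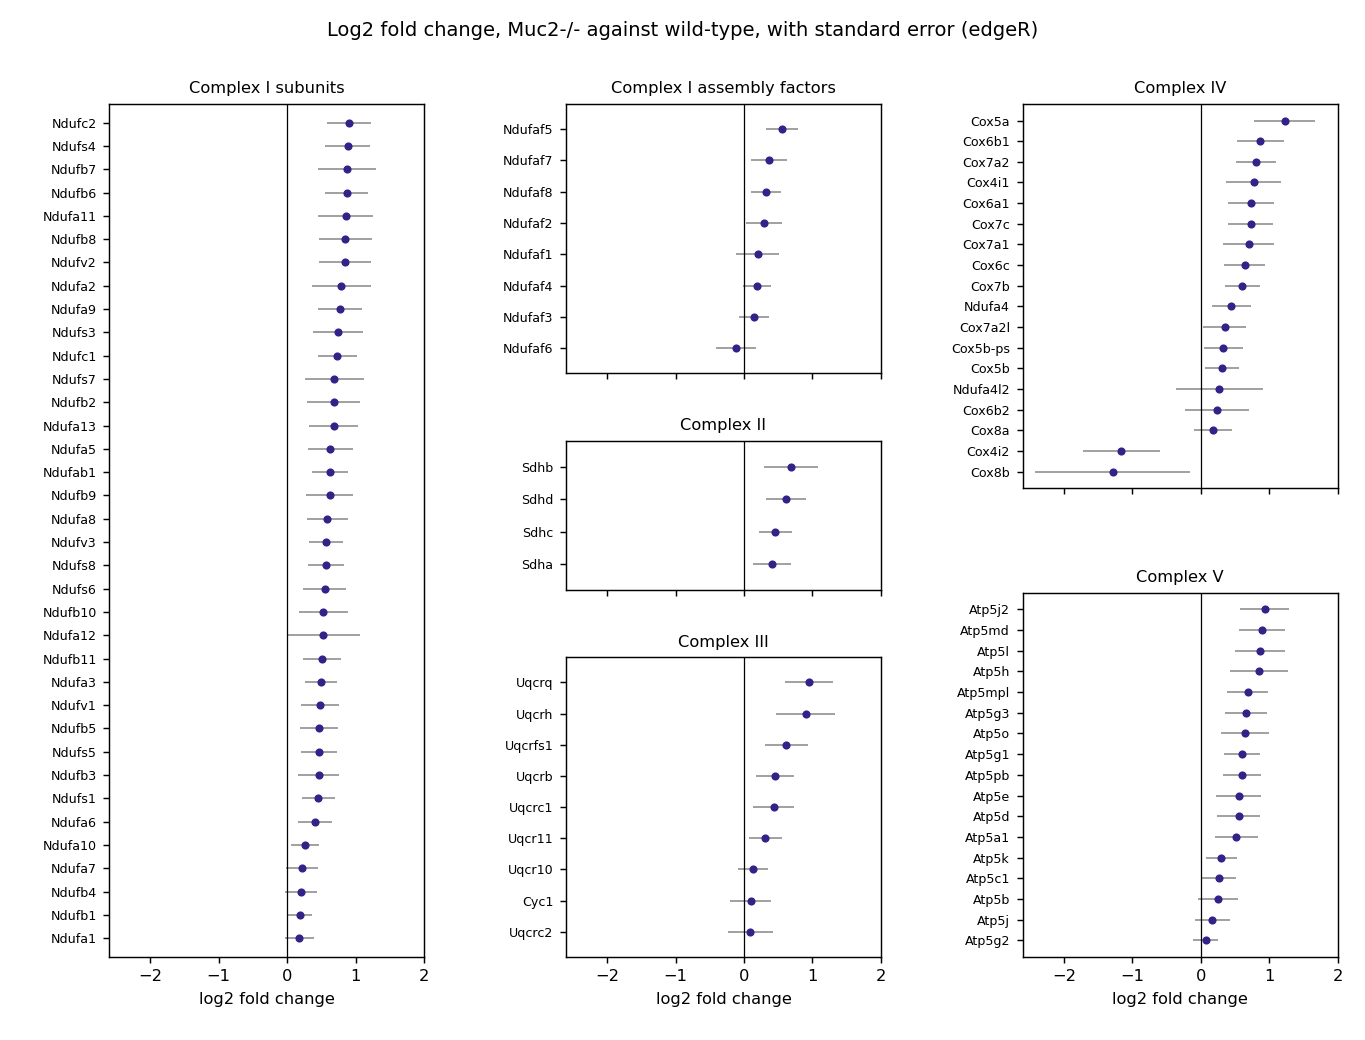
Log2 fold change of the tested members, 1 complex I subunit left out, Muc2-/- against wild-type, from edgeR; points are estimates, bars are standard errors, and panels are complexes. All complex I subunits drawn lie right of 0, while Cox4i2 and Cox8b in complex IV and Ndufaf6 among the assembly factors lie left of it.

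Most of this lean was carried by 2 libraries. Muc2-/- 2 was the highest of the 6 libraries for 76 members (81.7%, against 27.7% of all tested genes), and wild-type 1 was the lowest for 81 (87.1%, against 22.1%). For 68 members both held. In Muc2-/- 2 the median member stood at 1.76-fold the mean of Muc2-/- 1 and 3, and in wild-type 1 it stood at 0.711 of the mean of wild-type 2 and 3. In the other 4 libraries the highest and lowest values were within 1.5-fold of each other for 86 of 93 members. The same count over all tested genes was not made, so this closeness is not shown to be particular to the members. It was also partly built in, since the libraries at the ends were set aside. With wild-type 1 and Muc2-/- 2 both left out, the median log2 fold change over the members was 0.10, with 1 member at an unadjusted p under 0.05 on each side. Because these 2 libraries were at the ends for most members, leaving out both was bound to narrow the difference. No other pair was left out for comparison. Leaving out Muc2-/- 2 alone gave a median of 0.27 with 2 members on the higher side, and leaving out wild-type 1 alone gave 0.41 with 0. Without wild-type 2 there were 7 members on the higher side, and without Muc2-/- 3 there were 32.

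**Figure D2:**
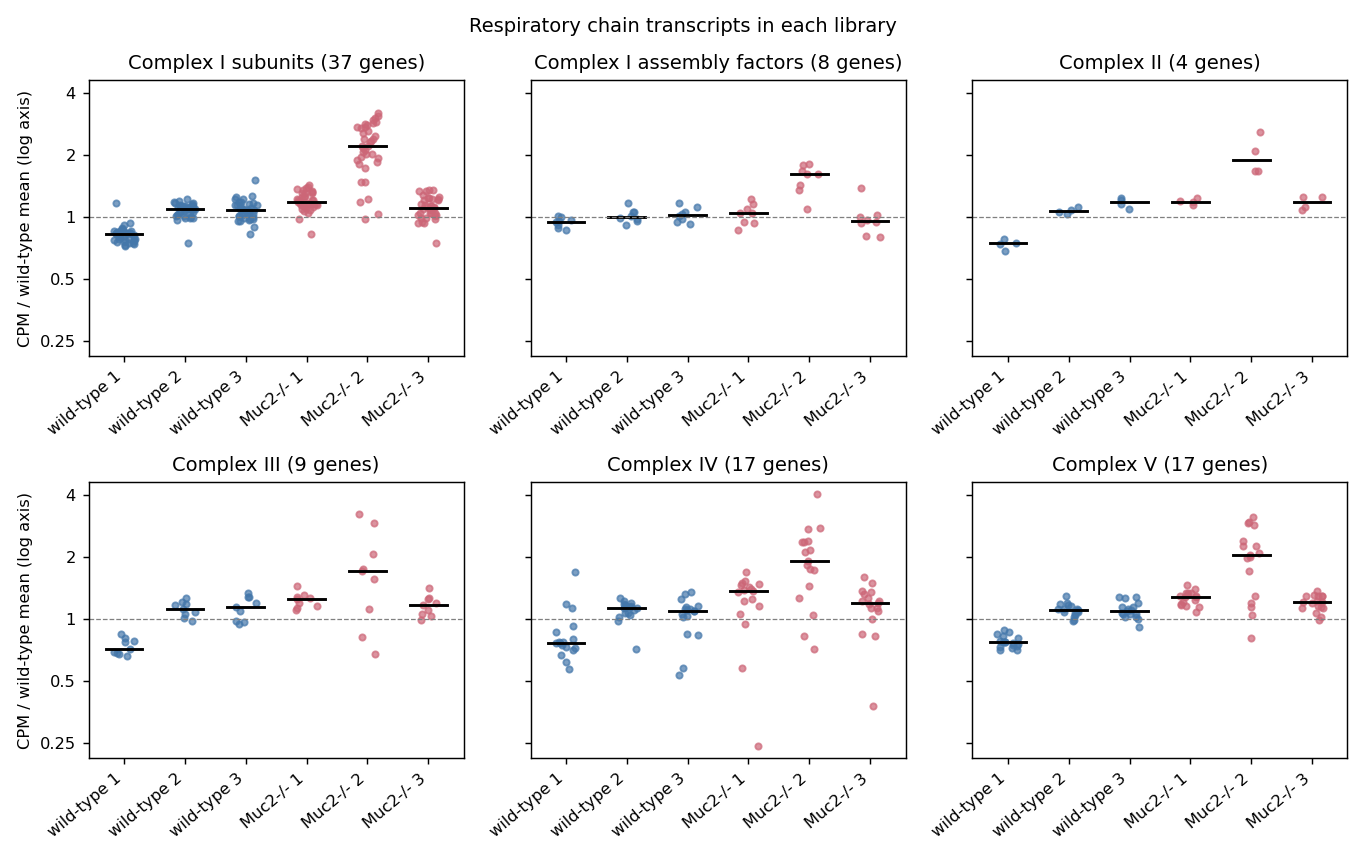
CPM of each tested member in each library divided by its wild-type mean (log axis), by complex; points are genes, black bars medians, blue wild-type and red Muc2-/-. Cox8b, at 0 in Muc2-/- 2, is not drawn. Muc2-/- 2 is displaced upward in every panel and wild-type 1 downward, least so for the assembly factors.

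Summed over the 98 genes, the nuclear-encoded subunits took 1.76%, 2.42% and 2.43% of all counts in wild-type 1 to 3 and 2.52%, 3.61% and 2.39% in Muc2-/- 1 to 3. Summed likewise, the 13 mitochondrially encoded subunits ran the other way, at 8.41%, 4.96% and 3.33% in wild-type 1 to 3 and 3.37%, 0.888% and 3.23% in Muc2-/- 1 to 3. The library with the least nuclear-encoded transcript thus had the most mitochondrially encoded transcript, and the reverse held for Muc2-/- 2. The ratio of mitochondrially to nuclear-encoded reads was 4.79 in wild-type 1 and 0.246 in Muc2-/- 2, and between 1.34 and 2.05 in the other 4 libraries. Shares of one total are not independent of each other. The sum hides uneven genes: in Muc2-/- 2, 10 of the 13 were below the mean of Muc2-/- 1 and 3, down to 0.074-fold (mt-Nd4). The others, mt-Co2, mt-Nd6 and mt-Co3, were at 1.45, 1.27 and 1.25-fold of that mean.

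**Figure D3:**
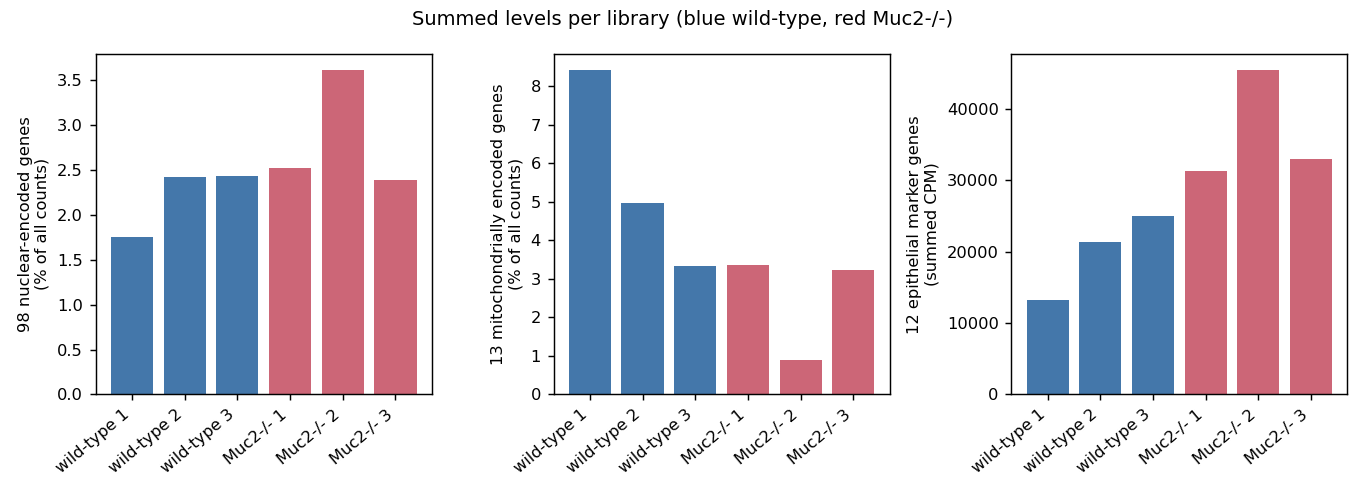
Share of all counted reads held by the 98 nuclear-encoded genes and by the 13 mitochondrially encoded genes, and summed CPM of 12 epithelial markers, per library (blue wild-type, red Muc2-/-). Nuclear-encoded and epithelial levels are lowest in wild-type 1 and highest in Muc2-/- 2, and mitochondrially encoded levels are in the opposite order at both ends.

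Of the cell type markers, those of epithelium ran in the order of the members at both ends. All 12 epithelial markers were detected, and their summed level was 13249, 21326 and 24979 CPM in wild-type 1 to 3 and 31259, 45384 and 32936 CPM in Muc2-/- 1 to 3. Wild-type 1 was lowest and Muc2-/- 2 highest, as for the respiratory chain, but here the 3 Muc2-/- values lay above all wild-type values. The 12 smooth muscle markers summed to 25899, 15226 and 7309 CPM in wild-type 1 to 3 and 5597, 5826 and 3082 CPM in Muc2-/- 1 to 3, and all 12 had negative log2 fold changes, 10 of them called lower by DESeq2 and none by edgeR. Wild-type 1 was highest there, but Muc2-/- 3 and not Muc2-/- 2 was lowest. The 8 enteric neuron and glia markers were likewise all negative, with 7 called lower by DESeq2. Over all genes, DESeq2 called 7.41% lower. Markers of goblet cells (7 tested) had a median of 1.36, absorptive colonocytes (10) -0.19, immune cells (9) 0.45 and fibroblasts (6) -0.38, in log2 fold change. In bulk tissue, fewer cells of a type and less RNA per cell cannot be told apart, and the part of tissue composition in the members' levels was not tested; a fit with a smooth muscle score as a covariate put 0 members at an unadjusted p under 0.05, but that score does not overlap between the genotypes.

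Complex I, the NADH dehydrogenase that feeds most electrons into the chain, had 37 of its 38 listed subunits tested, and all 37 had positive log2 fold changes, from 0.18 (Ndufa1) to 0.91 (Ndufc2), although Ndufa1 and Ndufb1 were below 0 with no composition factors. For 7 of the 37 the unadjusted p was under 0.05: Ndufa9, Ndufab1, Ndufb6, Ndufc1, Ndufc2, Ndufs4 and Ndufv3. Of all tested genes, 8.23% were under 0.05 on the higher side. None of those named was a catalytic core subunit, of which only 7 were tested, against 30 supernumerary subunits. The 7 core subunits that carry the flavin, the iron-sulfur clusters or the quinone site had a median of 0.62, and the 30 supernumerary subunits around them 0.58. Ndufb11b, a second Ndufb11 gene, had no reads.

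Ndufc2, a supernumerary subunit of the membrane arm, was at 49.7, 70.2 and 70.6 CPM in the wild-type libraries and 91.3, 179.9 and 85.6 in the Muc2-/- libraries. Every Muc2-/- value lay above every wild-type value, with Muc2-/- 2 at 2.03-fold the mean of Muc2-/- 1 and 3, and the means went from 63.5 ± 11.9 to 119 ± 52.9 CPM (SD, n = 3 each), log2 fold change 0.91, SE 0.32, edgeR adjusted p = 0.168. Ndufs4, an accessory subunit whose loss in mice is used as a model of Leigh syndrome, was at 81.3, 119 and 95.9 CPM in the wild-type libraries and 135, 277 and 134 in the Muc2-/- libraries, log2 fold change 0.88, SE 0.32, edgeR adjusted p = 0.181. Its groups did not overlap either, and wild-type 1 and wild-type 3 were both low. Ndufb7, a subunit with intermembrane-space cysteine motifs, was at 113, 159 and 135 CPM in the wild-type libraries and 155, 437 and 154 in the Muc2-/- libraries, log2 fold change 0.87, SE 0.42, edgeR adjusted p = 0.281. Here wild-type 2 exceeded both Muc2-/- 1 and Muc2-/- 3, so only Muc2-/- 2 lay above every wild-type value. The most abundant complex I transcripts per length were Ndufa2, at 212, 300.0 and 228 FPKM in the wild-type libraries and 279, 773 and 254 in the Muc2-/- libraries, and Ndufa1, at 204, 285 and 288 FPKM in the wild-type libraries and 319.8, 326 and 245 in the Muc2-/- libraries. In Muc2-/- 2, Ndufa2 stood at 2.84-fold the mean of Muc2-/- 1 and 3, and Ndufa1 at 1.14-fold.

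Among the core subunits of the NADH-oxidizing tip, Ndufv1, which binds the flavin, was at 143, 173 and 196 CPM in the wild-type libraries and 192, 334 and 187 in the Muc2-/- libraries, with a log2 fold change of 0.48. Ndufv2 was at 158, 231 and 242 CPM in the wild-type libraries and 276, 608 and 244 in the Muc2-/- libraries (log2 fold change 0.84), and Ndufs1, the largest of the 3, at 92.3, 127 and 137 CPM in the wild-type libraries and 138, 205 and 144 in the Muc2-/- libraries (0.45). Ndufv2 and Ndufs1 did not overlap between groups; wild-type 3 exceeded Muc2-/- 1 and 3 for Ndufv1. Of the quinone-binding module, Ndufs3 was at 84.2, 105 and 107 CPM in the wild-type libraries and 114, 271 and 111 in the Muc2-/- libraries, with a log2 fold change of 0.74 and no overlap. Ndufs7 was at 119.7, 157 and 152 CPM in the wild-type libraries and 141, 409 and 141 in the Muc2-/- libraries (0.69) and Ndufs8 at 81.0, 93.8 and 114 CPM in the wild-type libraries and 113, 195 and 118 in the Muc2-/- libraries (0.56), and both overlapped. For Ndufs7, Muc2-/- 1 and 3 were below wild-type 2 and 3, and the log2 fold change became -0.13 with wild-type 1 and Muc2-/- 2 left out. The edgeR adjusted p of the 7 core subunits was 0.257 to 0.392.

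The 8 complex I assembly factors had a median log2 fold change of 0.24. In the median gene wild-type 1 was at 0.932 of its group where the complex I subunits were at 0.765, and Muc2-/- 2 was highest for all 8. Ndufaf5, a methyltransferase-family assembly factor, was at 11.6, 11.3 and 11.7 CPM in the wild-type libraries and 14.1, 20.5 and 16.01 in the Muc2-/- libraries, log2 fold change 0.55, SE 0.23, edgeR adjusted p = 0.23. Its wild-type values were within 1 CPM of each other and the Muc2-/- values were all above them, so for this gene wild-type 1 did not stand apart. Ndufaf7 (0.37) and Ndufaf8 (0.32) had the next log2 fold changes, and Ndufaf6 was the only one below 0 (-0.12). Ndufaf8 and Ndufaf3 were the most abundant per length, with wild-type means of 46.1 ± 2.66 and 14.0 ± 2.41 FPKM (SD, n = 3). The 10 tested assembly factors of complex I with other names had a median of 0.17 and none reached an unadjusted p under 0.05; the largest difference was Nubpl, an iron-sulfur cluster factor, at 0.45.

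Complex II, succinate dehydrogenase, is the only respiratory complex without a mitochondrially encoded subunit and also belongs to the citric acid cycle. Its flavoprotein Sdha was at 291, 406 and 475 CPM in the wild-type libraries and 461, 656 and 436 in the Muc2-/- libraries, log2 fold change 0.41, SE 0.28, edgeR adjusted p = 0.433. The iron-sulfur subunit Sdhb was at 134, 206 and 242 CPM in the wild-type libraries and 222, 505 and 211 in the Muc2-/- libraries, log2 fold change 0.69, SE 0.39, edgeR adjusted p = 0.355. In both, wild-type 3 exceeded Muc2-/- 1 and 3. The membrane anchors Sdhc, at 188, 269.9 and 263 CPM in the wild-type libraries and 287, 403 and 301 in the Muc2-/- libraries, and Sdhd, at 238, 344 and 365 CPM in the wild-type libraries and 393, 663 and 395 in the Muc2-/- libraries, did not overlap between groups, with log2 fold changes of 0.46 and 0.62 and edgeR adjusted p of 0.315 and 0.276. Muc2-/- 2 was the highest and wild-type 1 the lowest library for all 4. The 4 transcripts did not shift equally there: Sdhb was at 2.33-fold and Sdhc at 1.37-fold the mean of the other Muc2-/- libraries in Muc2-/- 2. The 19 tested genes of the citric acid cycle and pyruvate dehydrogenase had a median log2 fold change of 0.19, and only Pdhx, at 0.59, had an unadjusted p under 0.05 (edgeR adjusted p = 0.234).

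Complex III passes electrons from ubiquinol to cytochrome c. The smallest edgeR adjusted p in the complex was that of Uqcrq, the ubiquinone-binding protein QP-C, on chromosome 11 from 53318749 to 53321658. Uqcrq was at 212, 349 and 261 CPM in the wild-type libraries and 399, 803 and 387 in the Muc2-/- libraries; the means went from 274 ± 69.1 to 529 ± 237 CPM (SD, n = 3 each), log2 fold change 0.95, SE 0.35, edgeR adjusted p = 0.183. Its Muc2-/- values were all above wild-type, by less for Muc2-/- 1 and 3 than for Muc2-/- 2. Uqcrh, the hinge protein beside cytochrome c1, was at 314, 468 and 379 CPM in the wild-type libraries and 483, 1259 and 427 in the Muc2-/- libraries, log2 fold change 0.90, SE 0.43, edgeR adjusted p = 0.28, and Uqcrfs1, the Rieske iron-sulfur protein, at 231, 403 and 395 CPM in the wild-type libraries and 438, 708 and 435 in the Muc2-/- libraries, log2 fold change 0.62, SE 0.31, edgeR adjusted p = 0.299. Uqcrh overlapped and Uqcrfs1 did not. The most abundant per length was Uqcr10, a small membrane subunit, with 387, 557 and 566 FPKM in the wild-type libraries and 585, 581 and 504 in the Muc2-/- libraries and a log2 fold change of 0.13.

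In Muc2-/- 2, a pair of complex III transcripts was low where the others were high or level. Cyc1, the cytochrome c1 that hands electrons on, was at 227, 363 and 438 CPM in the wild-type libraries and 408, 279.8 and 409 in the Muc2-/- libraries. Uqcrc2, a core protein, was at 164, 233 and 319.9 CPM in the wild-type libraries and 302, 163 and 299 in the Muc2-/- libraries, on chromosome 7 from 120234399 to 120258747. They were at 0.684 and 0.541 of the mean of Muc2-/- 1 and 3 in that library, while Uqcrh was at 2.77-fold. The partner core protein Uqcrc1, at 235, 343 and 436 CPM in the wild-type libraries and 382, 591 and 397 in the Muc2-/- libraries, was at 1.52-fold. The log2 fold changes of Cyc1 and Uqcrc2 were 0.10 and 0.09, with wild-type 1 lowest for Cyc1 and level with Muc2-/- 2 for Uqcrc2.

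Such divergence ran through most complexes. In Muc2-/- 2, complex IV ranged from 0.645-fold (Cox8a) to 2.71-fold (Cox5a) of the mean of Muc2-/- 1 and 3, and complex V from 0.63-fold (Atp5j) to 2.81-fold (Atp5h), among members with a mean of 5 CPM or more. Complex I ranged from 0.799-fold (Ndufb4) to 3.48-fold (Ndufa12), whereas the 4 complex II transcripts stayed within a 1.70-fold range. In all, 11 of 93 members were lower in Muc2-/- 2 than the mean of the other Muc2-/- libraries. Wild-type 1 was more even. There all complex II, III and V members were below the mean of wild-type 2 and 3, from 0.569 (Cyc1) to 0.834 (Atp5e) of it. At the same minimum of 5 CPM, complex I ran from 0.638 (Ndufa9) to 1.28 (Ndufb2) and complex IV from 0.474 (Cox7a1) to 0.904 (Ndufa4). The assembly factors ran from 0.825 (Ndufaf2) to 1.02 (Ndufaf6). Across the 89 members at 5 CPM or more, the deviation in wild-type 1 and that in Muc2-/- 2 were weakly related (Pearson's r = 0.21, Spearman's rho = 0.19; a description across genes that share libraries, with no test). Listed gene length tracked the deviation of Muc2-/- 2 across all 16107 genes (rho = -0.21) and not across the 93 members (rho = 0.01). The members were short, at a median length of 1587 against 4027 for all tested genes. A correlation within them therefore cannot show how they compare with longer genes. In Muc2-/- 2 the median deviation from the library mean was 0.19 in log2 CPM for the shortest of 3 length classes of tested genes. It was -0.24 for the longest class and 0.76 for the members. The part of length in this was not tested.

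**Figure D4:**
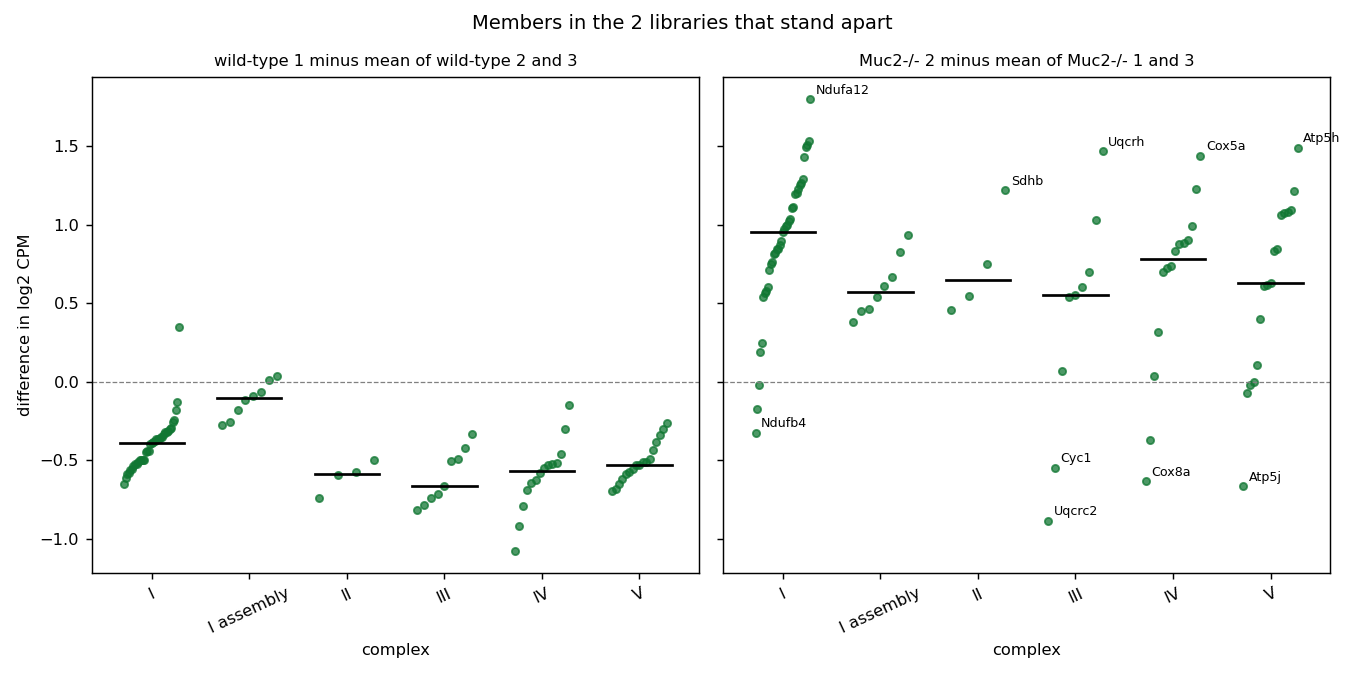
Difference in log2 CPM of wild-type 1 from the mean of wild-type 2 and 3 (left) and of Muc2-/- 2 from the mean of Muc2-/- 1 and 3 (right), for the 89 members at a mean of 5 CPM or more; points are genes sorted within each complex and black bars are medians. Wild-type 1 is mostly low, with less spread than Muc2-/- 2, which is mostly high, with Uqcrc2, Cyc1, Cox8a and Atp5j well below 0.

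Ndufa12, an accessory subunit of complex I on chromosome 10 from 94034582 to 94057305, shows how far a single transcript could depart. It was at 42.7, 43.3 and 87.5 CPM in the wild-type libraries and 47.8, 159 and 43.4 in the Muc2-/- libraries, so wild-type 3 and Muc2-/- 2 were high and the other 4 libraries lay between 42.7 and 47.8 CPM. Its log2 fold change was 0.53 with an SE of 0.53 and edgeR adjusted p = 0.61.

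Complex IV, cytochrome c oxidase, joins nuclear-encoded subunits to a mitochondrially encoded catalytic core. Cox5a, a matrix-side subunit on chromosome 9 from 57428557 to 57439709, had the largest log2 fold change of any member. It was at 155, 248 and 289.9 CPM in wild-type 1 to 3 and 341, 932 and 346 CPM in Muc2-/- 1 to 3. Muc2-/- 1 and 3 were above the highest wild-type library and Muc2-/- 2 far above, and the means went from 231 ± 69.1 to 539 ± 339.8 CPM (SD, n = 3 each), log2 fold change 1.22, SE 0.45, edgeR adjusted p = 0.18, and DESeq2 adjusted p = 0.0578, the closest of any member to the threshold. Without Muc2-/- 2 its log2 fold change was 0.59. Cox6b1, which bridges the monomers of the dimer, was at 279, 419 and 384 CPM in the wild-type libraries and 539, 985 and 456 in the Muc2-/- libraries, log2 fold change 0.87, SE 0.34, edgeR adjusted p = 0.201. Cox7a2 was at 172, 269.9 and 262 CPM in the wild-type libraries and 361, 554 and 321 in the Muc2-/- libraries, log2 fold change 0.81, SE 0.29, edgeR adjusted p = 0.173, and Cox7b at 204, 326 and 331 CPM in the wild-type libraries and 420.4, 504 and 388 in the Muc2-/- libraries, log2 fold change 0.61, SE 0.26, edgeR adjusted p = 0.229. These 3 small subunits did not overlap between genotypes, and in Cox7a2 and Cox7b Muc2-/- 2 stood less far above its group (1.63 and 1.25-fold). The most abundant per length were Cox6a1, at 801, 1224 and 1253 FPKM in the wild-type libraries and 1503, 2687 and 1350.0 in the Muc2-/- libraries, and Cox8a, at 837, 1169.8 and 1203 FPKM in the wild-type libraries and 1447, 911 and 1323 in the Muc2-/- libraries. Cox6a1 did not overlap between groups, while in Cox8a Muc2-/- 2 was below wild-type 2 and 3.

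Several complex IV subunits have a second gene that is used mainly in another tissue, and here the ubiquitous gene was the higher per length in each pair and library. Cox4i2, the isoform known from lung and pericytes, was the only member with all Muc2-/- values below all wild-type values. It had 30, 29 and 26 reads in wild-type 1 to 3 and 6, 16 and 9 in Muc2-/- 1 to 3, on chromosome 2 from 152596093 to 152606957, which is 1.66, 1.51 and 1.24 CPM in wild-type 1 to 3 and 0.357, 1.06 and 0.556 CPM in Muc2-/- 1 to 3, log2 fold change -1.16, SE 0.56, edgeR adjusted p = 0.28. Its ubiquitous partner Cox4i1 was at 654, 980.3 and 939 CPM in the wild-type libraries and 1056, 2376 and 970.0 in the Muc2-/- libraries, log2 fold change 0.77, SE 0.40, edgeR adjusted p = 0.311. Per length, Cox4i2 was 0.4996%, 0.303% and 0.260% of Cox4i1 in wild-type 1 to 3 and 0.0665%, 0.0875% and 0.113% in Muc2-/- 1 to 3. The ratio did not overlap between genotypes either, though it rests on few reads per library.

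Cox7a1, a muscle-type isoform, was the best expressed of the alternative genes. It was at 23.0, 43.4 and 54.4 CPM in the wild-type libraries and 68.0, 87.5 and 40.5 in the Muc2-/- libraries, and wild-type 1, the library richest in smooth muscle markers, was its lowest. Per length it was 23.5%, 28.4% and 36.7% of Cox7a2 in wild-type 1 to 3 and 33.2%, 27.9% and 22.3% in Muc2-/- 1 to 3, with full overlap. Cox6b2, known from testis, was at 1.23%, 0.874% and 0.405% of Cox6b1 in wild-type and 0.509%, 0.510% and 0.537% in Muc2-/-. Ndufa4l2, a hypoxia-induced relative of Ndufa4, was at 0.549% to 1.87% of Ndufa4, with the 2 highest values in wild-type 1 and Muc2-/- 3. The heart and skeletal muscle isoform Cox8b was listed at 1.49, 4.70 and 0.808 FPKM in the wild-type libraries and 2.30, 0 and 0.516 in the Muc2-/- libraries, and its log2 fold change of -1.29 had an SE of 1.13. Cox6a2 had 2, 0 and 10 reads in wild-type 1 to 3 and 2, 0 and 0 in Muc2-/- 1 to 3 and did not pass the filter, and Cox7b2 and Cox8c, both known from testis, had none. Cox5b-ps, a Cox5b copy that the table lists as protein-coding, was at 29.0, 48.9 and 61.6 CPM in the wild-type libraries and 64.7, 48.8 and 61.6 in the Muc2-/- libraries, and reads shared by the 2 genes cannot be assigned with certainty.

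**Figure D5:**
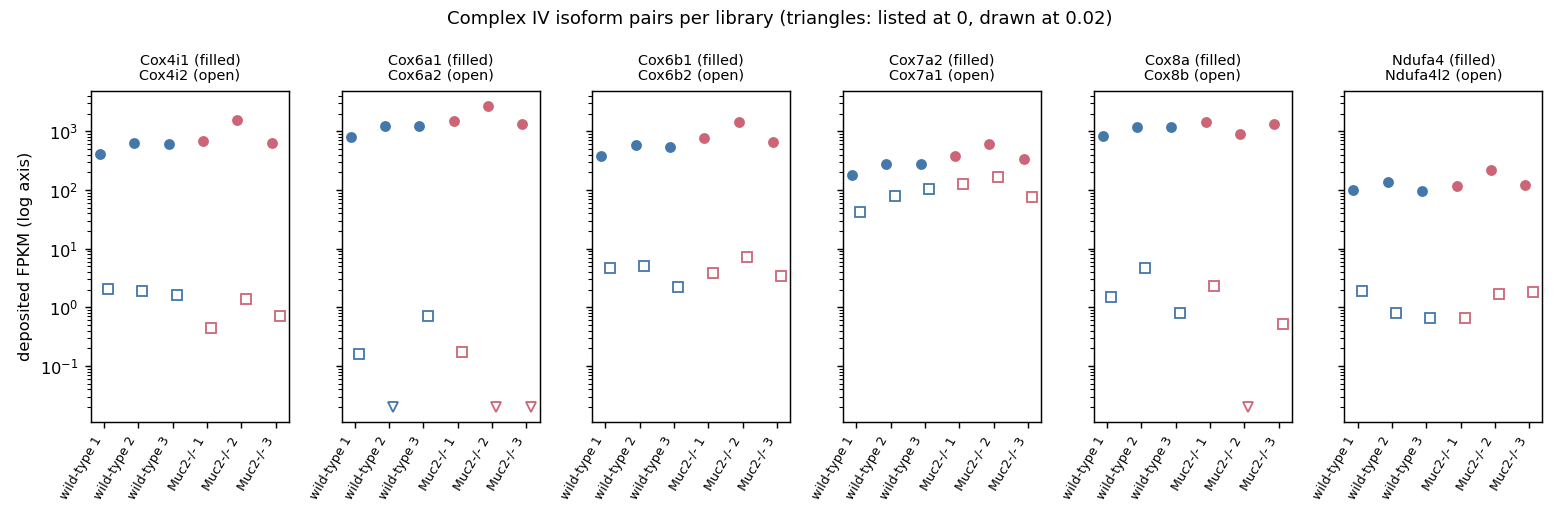
Deposited FPKM (log axis) of 6 complex IV gene pairs in each library; filled circles are the ubiquitous gene, open squares the alternative gene, triangles values listed at 0, blue wild-type and red Muc2-/-. Cox7a1 is nearest to its partner, the other alternative genes are far below theirs, and Cox4i2 is lower in all Muc2-/- libraries.

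Complex V, the ATP synthase, had 17 of 18 listed rows tested, all with positive log2 fold changes (except Atp5g2 with no composition factors) from 0.07 (Atp5g2) to 0.93 (Atp5j2); the remaining row is a second Atp5o entry with no reads. The catalytic head was most abundant per length, with wild-type means of 452 ± 136 FPKM for Atp5a1 and 392 ± 114 FPKM for Atp5b (SD, n = 3). Its alpha subunit Atp5a1 was at 1012, 1460.5 and 1806 CPM in the wild-type libraries and 1842, 2435 and 1845 in the Muc2-/- libraries, log2 fold change 0.52, SE 0.31, edgeR adjusted p = 0.384, and its catalytic beta subunit Atp5b at 1245, 1633 and 2137 CPM in the wild-type libraries and 2024, 1926 and 2024 in the Muc2-/- libraries, log2 fold change 0.25, SE 0.29, edgeR adjusted p = 0.662. Atp5a1 was highest in Muc2-/- 2, while Atp5b was highest in wild-type 3, and both were lowest in wild-type 1. The gamma subunit Atp5c1, the rotor shaft, was at 257, 349 and 450.2 CPM in the wild-type libraries and 455, 419.9 and 398 in the Muc2-/- libraries, likewise without a displaced Muc2-/- 2.

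The largest complex V values belonged to small membrane subunits. Atp5j2 (subunit f) was at 236, 372 and 333 CPM in the wild-type libraries and 459.8, 927 and 409 in the Muc2-/- libraries, log2 fold change 0.93, SE 0.36, edgeR adjusted p = 0.199. Atp5md, which helps ATP synthase dimers associate, was at 143, 198 and 189 CPM in the wild-type libraries and 248, 505 and 230.0 in the Muc2-/- libraries, log2 fold change 0.89, SE 0.34, edgeR adjusted p = 0.19. Atp5l (subunit g) was at 161, 227 and 194 CPM in the wild-type libraries and 259, 570.1 and 232 in the Muc2-/- libraries, log2 fold change 0.86, SE 0.37, edgeR adjusted p = 0.229. All 3 had Muc2-/- values wholly above wild-type. Muc2-/- 3 exceeded the highest wild-type library by little for Atp5l, and Muc2-/- 2 stood at 2.14, 2.12 and 2.33-fold their mean in Atp5j2, Atp5md and Atp5l. The 3 genes of the identical c subunit differed: Atp5g1 and Atp5g3 did not overlap between groups (log2 fold changes 0.61 and 0.66, edgeR adjusted p = 0.24 and 0.262), whereas Atp5g2, at 175, 211 and 220.1 CPM in the wild-type libraries and 218, 212 and 206 in the Muc2-/- libraries, was nearly level outside wild-type 1 (0.07). Atp5j, the coupling factor of the stalk, was at 182, 258 and 259 CPM in the wild-type libraries and 313, 188 and 285 in the Muc2-/- libraries, with Muc2-/- 2 at 0.63 of its group.

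Promoter sequence was looked at because the members moved together across libraries. Of the 93 tested members, 76 matched a RefSeq gene with a promoter entry (build GRCm38.p6), giving 81 windows of 300 bases, 250 before and 50 after a gene start. The search covered both strands for CGCATGCG (the core of the NRF1 site), CCGGAAG (a core of ETS family sites, the family of GABP) and AAGATGGC (a core of the YY1 site); the 3 motifs do not contain each other. The NRF1 core was in 13.6% of member windows and 2.52% of the 21263 windows of protein-coding genes, the ETS core in 23.5% and 11.6%, and the YY1 core in 13.6% and 3.05%. Of the 11 YY1 core matches, 9 began 11 to 39 bases after the start, or 81.8%, against 47.6% of matches in protein-coding windows. The member windows belong to tested genes, whereas the protein-coding windows were not limited to genes tested here. No rate over tested genes was computed, so the difference is not shown to be particular to the respiratory chain. A letter match is a description and not a bound site.

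Stretches of 30 bases around matches are shown for the 3 members with the highest and the 2 with the lowest difference of Muc2-/- 2 from Muc2-/- 1 and 3 among those with that motif, in the direction of the gene, with the match in capitals. For the NRF1 core these were Ndufa11, Atp5l and Ndufa8 as the highest and Atp5g2 (level, 1.00-fold) and Atp5j (below) as the lowest.
Ndufa11 (chr17:56717692-56717721, plus strand): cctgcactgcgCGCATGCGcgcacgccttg
Atp5l (chr9:44920963-44920992, minus strand): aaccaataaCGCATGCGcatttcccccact
Ndufa8 (chr2:36049329-36049358, minus strand): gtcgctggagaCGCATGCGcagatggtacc
Atp5g2 (chr15:102671070-102671099, minus strand): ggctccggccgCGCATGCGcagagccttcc
Atp5j (chr16:84835105-84835134, minus strand): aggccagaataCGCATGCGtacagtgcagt
For the YY1 core the highest were Ndufs7, Ndufb8 and Atp5j2, and the lowest Ndufa3, itself above its group (1.52-fold), and again Atp5j.
Ndufs7 (chr10:80249462-80249491, plus strand): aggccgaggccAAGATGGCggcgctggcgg
Ndufb8 (chr19:44555393-44555422, minus strand): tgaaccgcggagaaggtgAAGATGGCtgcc
Atp5j2 (chr5:145191500-145191529, minus strand): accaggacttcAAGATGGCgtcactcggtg
Ndufa3 (chr7:3617384-3617413, plus strand): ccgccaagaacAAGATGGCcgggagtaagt
Atp5j (chr16:84835046-84835075, minus strand): aaagtgtaggaAAGATGGCggagtcttagc
Ndufa11 and Atp5j, which share the 8 letters of the NRF1 core, were at 2.7-fold and 0.63-fold of their group in Muc2-/- 2. They were shown because they were the ends of that order, so this contrast follows from the choice. Over the members, the median difference of Muc2-/- 2 from Muc2-/- 1 and 3 was 0.56 in log2 CPM for the 11 genes with the NRF1 core and 0.83 for the 65 without, 0.98 for 19 with the ETS core and 0.76 for 57 without, and 0.89 for 11 with the YY1 core and 0.81 for 65 without. The medians with and without each motif were not compared by a test.

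Mitochondrially encoded partners of the same complexes had 13 of 13 negative log2 fold changes, with a median of -1.09. EdgeR called none of them and DESeq2, which called 7.41% of all genes lower, called 4 lower: mt-Co2, mt-Co3, mt-Atp6 and mt-Nd4l. In complex IV, mt-Co3 was at 203, 129 and 114 CPM in the wild-type libraries and 54.7, 68.8 and 55.7 in the Muc2-/- libraries, log2 fold change -1.32, SE 0.26, edgeR adjusted p = 0.1, DESeq2 adjusted p = 0.000454. Of its nuclear-encoded partners, Cox5a had the largest log2 fold change, 1.22, where the median of complex IV was 0.53. However, mt-Co3 had only 902 to 3666 reads per library, against 67380 to 712742 for mt-Co1 of the same complex. The log2 fold change of mt-Co1 was -1.06, edgeR adjusted p = 0.383, DESeq2 adjusted p = 0.184. Reads shared with pseudogene copies cannot be assigned with certainty, and their part in these counts was not tested. Wild-type 1 and Muc2-/- 2 were at the ends of the summed shares of both sets. With these 2 libraries set aside, the median difference between Muc2-/- and wild-type was -0.25 in log2 CPM for the 13 mitochondrially encoded genes and 0.11 for the 93 members.

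Outside the complexes, 10 carriers and enzymes that feed electrons to ubiquinone or carry them to complex IV were tested, and 3 had an unadjusted p under 0.05, all higher in Muc2-/-, and DESeq2 called the same 3 where edgeR called none. Over all genes, 8.23% had an unadjusted p under 0.05 in edgeR on the higher side, and DESeq2 called 4.09% higher. Sqor, which oxidizes hydrogen sulfide in the colonic epithelium and passes its electrons to ubiquinone, was at 247, 373 and 410.3 CPM in the wild-type libraries and 560.3, 1050.0 and 642 in the Muc2-/- libraries, log2 fold change 1.13, SE 0.32, edgeR adjusted p = 0.121, DESeq2 adjusted p = 0.013. Gpd2, the mitochondrial glycerol-3-phosphate dehydrogenase, was at 40.5, 55.1 and 58.7 CPM in the wild-type libraries and 79.7, 82.7 and 105 in the Muc2-/- libraries, log2 fold change 0.79, SE 0.21, edgeR adjusted p = 0.107, DESeq2 adjusted p = 0.0197. Somatic cytochrome c, Cycs, was at 169, 283 and 277 CPM in the wild-type libraries and 369.8, 503 and 421 in the Muc2-/- libraries, log2 fold change 0.83, SE 0.27, edgeR adjusted p = 0.142, DESeq2 adjusted p = 0.0365. In all 3 genes every Muc2-/- library lay above every wild-type library, and Gpd2 was highest in Muc2-/- 3 rather than Muc2-/- 2.

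Lists of assembly, regulation and protein supply differed less. The 36 tested assembly factors of complexes II to V had a median log2 fold change of 0.20 with none at an unadjusted p under 0.05; the largest was Cmc2, a factor of complex IV, at 0.97. The 6 tested ATP synthase inhibitor and nucleotide carrier genes split, with the testis-type ADP/ATP carrier Slc25a31 at 2.72 (edgeR adjusted p = 0.158) on only 2, 0 and 7 reads in wild-type 1 to 3 and 16, 11 and 23 in Muc2-/- 1 to 3, the muscle-type ADP/ATP carrier Slc25a4 at -1.09 (0.21) and the inhibitor Atpif1 at 0.64 (0.379). The 19 regulators of respiratory gene expression had a median of -0.02, from 1.02 for Mterf1a, a mitochondrial transcription termination factor, and 0.89 for Chchd2 down to Tfb2m, a mitochondrial transcription factor, at -0.61 and Pprc1, a coactivator, at -0.48, both with an unadjusted p under 0.05 and neither called. Mitochondrial ribosomal proteins (77 tested) had a median of 0.30, import proteins (23) 0.16 and cytosolic ribosomal proteins (77) 0.12. Muc2-/- 2 was highest for 60 of the 77 mitochondrial and 55 of the 77 cytosolic ribosomal protein genes, and wild-type 1 lowest for 44 and 5 of them. The respiratory chain members were thus not alone in being high in Muc2-/- 2.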

How the data were processed

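Groups and replicate numbers came from the sample titles. The authors deposited counts per gene and FPKM. The submitters' processing notes list DESeq2 1.20.0, featureCounts 1.5.0-p3, the build mm10, StringTie 1.3.3b and HISAT2 2.0.5, with no role given. Gene coordinates are as the deposited count table gives them, in a build that differs from RefSeq's; promoter coordinates are RefSeq GRCm38.p6. No source states whether counting used strand, and overlapping genes and pseudogene copies may share reads.

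Here, counts were tested with edgeR 4.0.16 (TMM, default filter with a minimum count of 10 and total of 15, quasi-likelihood test, genotype only, Benjamini-Hochberg over 16107 genes, called under 0.05). CPM are counts scaled to library totals and TMM factors; log2 CPM used a prior count of 2. The deposited FPKM give levels per listed length. DESeq2 1.42.0 and limma 3.58.1 were alternatives, run in R 4.3.3. The edgeR step was tested on simulated data. No pair of libraries in a group agreed within counting noise (chi-square per degree of freedom 25.0 to 148.3), so none was counted as a duplicate. Members of each complex were named by a rule: the 3 with the largest absolute log2 fold change, the 2 most abundant per length, complex I core subunits, complex II subunits and isoform pairs; transcripts described for their level in Muc2-/- 2, among them Uqcrc2, Cyc1, Ndufa12 and Atp5j, were chosen after their values were seen, as were subunits set beside them. The values of 1 complex I subunit are not reported here. The members, lists and alternatives were chosen with earlier results of these data known.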

Additional observations from a re-analysis of the deposited data

How the results depend on the processing

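Members called at an adjusted p under 0.05 were 0 in both directions under all alternatives run with edgeR, DESeq2 and limma. Over the alternatives other than leaving out a single library, the median log2 fold change of the members was between 0.10 and 0.57. Only the joint omission of wild-type 1 and Muc2-/- 2 moved it beyond its spread, to 0.10, with 0.092 for complex I, -0.048 for assembly factors, 0.081, 0.059 and 0.17 for complexes II, III and V. Since those 2 libraries were at opposite ends for most members, a smaller median was built into that omission. That fit called 1 gene higher and 0 lower, had 1 member at an unadjusted p under 0.05 on each side, and reversed Ndufa1 (-0.020), Ndufaf7 (-0.0032), Ndufaf3 (-0.089), Sdhb (-0.050), Uqcr10 (-0.043), Cox6b2 (-0.0093) and Ndufs7 (-0.13). 

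All tested genes called higher and lower numbered 384 and 815 with no filter, 659 and 1193 with DESeq2, 7 and 1 without composition factors, 10 and 1 with mitochondrial and immune receptor genes removed, 0 and 0 with the smooth muscle covariate, 3 and 0 with limma on log2(FPKM + 1), 4 and 0 with log2(FPKM + 0.1), and 37 and 9 with a minimum of 1 FPKM; RLE gave 5 lower and limma-voom 11 higher. Members at an unadjusted p under 0.05 and higher were 9 with upper-quartile factors, 5 without composition factors, 30 with no filter, 31 with DESeq2, 4, 7 and 9 in the FPKM fits, and 0 with the covariate; 1 was lower without composition factors, in the FPKM fits and with a length offset. Without composition factors Ndufa1 (-0.0097), Ndufaf3 (-0.045) and Uqcr10 (-0.056) reversed. With the covariate Ndufaf3 (-0.058), Uqcr10 (-0.074), Cox8b (0.21), Cox8a (-0.16) and Atp5b (-0.27) reversed. The cause was not tested.

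Leaving out 1 library at a time gave 0 to 272 genes called higher and 0 to 954 lower, the highest without wild-type 3, and 0 to 32 members at an unadjusted p under 0.05 on the higher side and 0 to 1 on the lower. Member medians ran from 0.27 to 0.71. Uqcr10 (-0.021 to 0.21) reversed without wild-type 1, Cox6b2 (-0.12 to 0.45) without wild-type 3 (-0.053) or Muc2-/- 2, and Ndufaf3 (-0.0042 to 0.28) without Muc2-/- 2.

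Whether replicate numbers pair the libraries could not be settled from 3 libraries per group. Correlations of same-numbered libraries were 0.09, 0.28 and 0.06. Wild-type 1 and 2 correlated best with their own number, and wild-type 3 with Muc2-/- 1 (0.07). A fit with the number as a block called 225 genes higher and 448 lower, 0 of them members, with a member median of 0.50. The 4 members below 5 CPM in wild-type, all in complex IV, rest on few reads, and the filter removed 5 members.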
